A study of Mus musculus with 10 samples.

Results

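The brain's RNA was set here against a second RNA on the same spots of each array, gene by gene over the whole genome. Each of the 10 arrays carried a mouse hemibrain RNA in the red dye Cy5 and another RNA in the green dye Cy3, and the measure was the log2 ratio of Cy5 to Cy3, so a ratio of 1 is a level 2 times as high in the hemibrain channel. All 10 arrays of the series entered. Spots that were array controls or carried an outlier flag were left out, and a probe was kept when its Cy5 or its Cy3 signal was well above background on each of the 10 arrays. Of 41174 probes, 26819 passed, and they represented 14409 genes with a symbol, each taken by its brightest probe. A gene missing from one channel passed through the other, so the genes kept are not all genes.

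The hemibrains were from the left side of male C57BL/6j mice that arrived at 3 weeks of age, were housed singly, ate their diet for about 20 weeks and were 5 months old. The study compared a standard lab diet (SD) with an n-3 PUFA enriched diet (FD), but the labels give FD to the Cy5 RNA of all 10 arrays and call the same arrays controls, so the diets were not settled and no diet comparison was made. Any diet difference is therefore part of the spread between arrays. The labels give the Cy3 RNA as pooled hemibrain from SD mice and also as a cell line, whereas the study's methods give it as a commercial reference RNA. It was 1 common RNA, so the test below holds the spread among hemibrain arrays and leaves out that of the Cy3 RNA. No array had the dyes swapped, and a dye effect on a probe cannot be told apart from a difference between the RNAs.

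The ratios went against a hemibrain pool in Cy3. Of 12 neuron markers kept, 11 were higher in Cy5, and of 18 mitosis genes 17 were lower, with values given below. The Cy3 RNA is given no tissue name here and is called the Cy3 RNA. The label of array C10-437 gives it another position on its slide than its scanner file does, and the file was used. The arrays lay on 4 slides, of which 2 held 4 arrays each, and no spot was saturated. Pairs of arrays correlated at 0.932 to 0.986 over probes kept. Array C10-434 stood apart: 49.8% of its probes were well above background in Cy5, against 68.2% to 76.9% on the other 9, and its median background-subtracted Cy5 signal was 28.5, against 60.0 to 171. In a bulk tissue such as this, fewer cells of a type and less RNA per cell cannot be told apart.

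As background, a hemibrain holds neurons, which signal through ion channels and vesicle release at synapses, astrocytes, which clear transmitter, oligodendrocytes, which wrap axons in myelin, and microglia, the resident macrophages, besides vessels and choroid plexus. Nearly all neurons of an adult are past their last division, so the genes that copy DNA and build the mitotic spindle are known for low levels in adult brain. Genes of many basic tasks come as paralogs, 1 used in most cells and 1 used mainly in neurons.

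Hemibrain and Cy3 RNA differed at a large share of the genes. By limma's treat test of a ratio beyond a log2 of 1 in either direction, with Benjamini-Hochberg adjustment over all probes kept, 5456 of 26819 probes (20.3%) were higher in the hemibrain channel and 6789 (25.3%) were lower. Counted by gene, 3235 of 14409 (22.5%) were higher, 3371 (23.4%) were lower and 7803 (54.2%) were not called. The split of probe calls moved with the processing: 44.6% of the calls were higher as given here, 50.7% after loess, 50.4% after centring, 51.9% with both dyes required above background, 55.8% after background subtraction with a floor and 59.6% after normexp, and the median log2 ratio of all genes ran from -0.08 as given here to 0.10 after loess or centring. Replicate spread was small beside the differences: the median SD of a gene over the arrays was 0.25 on the log2 scale and the SD of the gene means was 1.84. Of the genes with a value on all 10 arrays, 4728 lay above a log2 ratio of 0 on every array and 5673 lay below it on every array. Without array C10-434 the counts were 5458 probes higher and 6754 lower. The far ends were unequal, with 982 genes above a log2 ratio of 4 (16-fold) and 423 below -4.

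**Figure D1:**
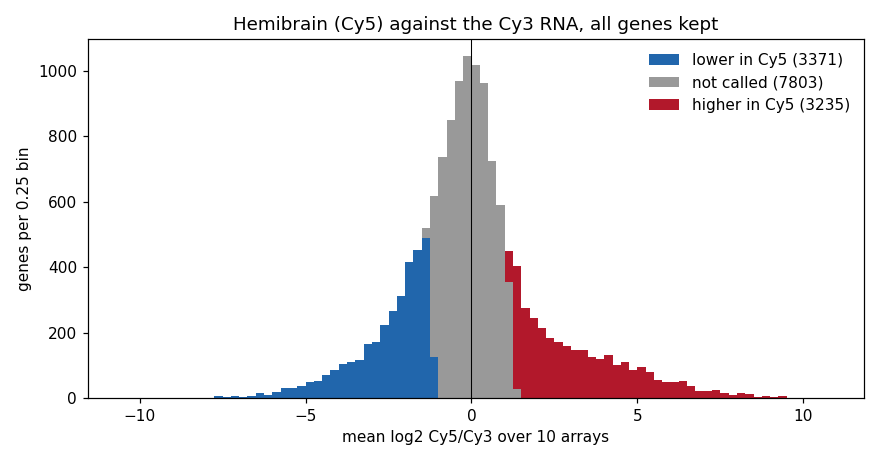
Mean log2 ratio of Cy5 to Cy3 of each gene kept (x axis, log2 units) against the number of genes (y axis), with genes called higher, called lower and not called by the treat test stacked in separate colours, in bins of 0.25. The 982 genes above 4 form a longer tail than the 423 below -4.

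The genes with the highest ratios among those well above background in both dyes on all 10 arrays included genes of synapses, axons and secretion. Sparcl1, which encodes hevin, a matrix protein secreted by astrocytes that promotes synapses, had log2 ratios from 8.53 to 9.08 with a median of 8.86 on the 9 arrays with a value. Its mean of 8.86 ± 0.07 (SE, n = 9) is 465-fold. Nefl, the light chain of the neurofilament that supports axons, ran from 7.69 to 9.18 with a median of 8.34, and its mean of 8.38 is 333-fold. Both genes lay far from 0 on every array measured. Penk, the precursor of the enkephalins, ran from 7.39 to 8.69 with a median of 7.79. Gpm6a, a neuronal membrane protein of growth cones, ran from 7.30 to 8.53 with a median of 7.93. Their means are 236-fold and 229-fold, and no array came near an equal signal.

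Further genes of the 20 highest are given here by their means. Ppp1r9a (neurabin, an actin binder of dendritic spines) had a mean of 8.04, Arpp21 (a phosphoprotein regulated by cAMP) 8.02, Pclo (piccolo, a scaffold of the presynaptic active zone) 7.69, Syt1 (the calcium sensor of vesicle release) 7.52 and Plppr4 (a membrane protein of excitatory synapses) 7.45. Celf3, an RNA-binding splicing factor, had 7.43, and Serpini1, the protease inhibitor neuroserpin, had 7.36. Genes of secretory granules were also there, with Scg5 at 7.31, a chaperone of a prohormone convertase, and Chgb at 7.20, a granule matrix protein. Kcna1, a delayed potassium channel of axons, had 7.31 and Chn1, a Rac-regulating protein of axon guidance, had 7.29. Scg5 was the steadiest of the 20, from 7.11 to 7.59 with an SD of 0.17. Pclo was the least steady, from 6.29 to 8.47 with an SD of 0.70, and its lowest value was on array C10-434. That array held the highest value for 15 of the 20 and the lowest for 1. The largest adjusted p of the 20 (limma treat) was 1.8e-12.

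Genes with Cy3 signal not well above background on any array have only a bound, set by the lowest signal that was well above background on each array or by the dim probe's own signal where that was higher. There were 120 such genes higher in Cy5. Kcnd2, which encodes the Kv4.2 channel of the dendritic A-type potassium current, was at least 478-fold higher, with log2 ratios of the measured signals from 8.52 to 10.72 and a median of 9.51. Wdr17, a WD repeat protein, was at least 211-fold higher. Slitrk1, a synaptic adhesion protein, was at least 192-fold higher and Syt4, a synaptotagmin of dense-core vesicles, at least 189-fold. Receptors were among the next genes by bound: Gabrg1, a subunit of the GABA-A receptor, was at least 128-fold higher, and Adrb1, the beta-1 adrenergic receptor, was at least 128-fold higher. The bound of Kcnd2 exceeded that of the next gene by more than 2 times.

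The 20 lowest ratios among genes well above background in both dyes included genes of cell division, stress and the interferon response. Anxa1, a calcium-dependent membrane-binding protein of inflammatory control, ran from -6.96 to -6.53 with a median of -6.81, and its mean of -6.78 ± 0.06 (SE, n = 10) is 110-fold lower in hemibrain. Mki67, the proliferation marker Ki-67, ran from -6.87 to -5.98 with a median of -6.40. S100a4, a calcium-binding protein of motile cells, ran from -6.87 to -5.42 with a median of -6.56. None of the 3 came within a log2 ratio of 5 of equal signal on any array. Cks1b, a partner of the cyclin-dependent kinases, had a mean of -5.68, Birc5 (survivin, of the chromosomal passenger complex) -5.62 and H1f5, a linker histone, -6.31. Genes known from development or from embryonic and tumour cells included Rhox5, an X-linked homeobox gene of the reproductive tract, at -6.34, Hmga2, a chromatin protein of embryonic growth, at -5.60, and Gata6, an endoderm transcription factor, at -5.50. Col1a1 (fibrillar collagen) had -5.58, Spp1 (osteopontin) -5.95, Lgals3 (galectin-3) -6.05 and Krt19 (a keratin of simple epithelium) -5.38. Ifi204, an interferon-inducible DNA sensor, had -6.14, Pou2af1, a coactivator of B cells, -5.57 and C3, the central complement protein, -5.43. Emp1, an epithelial membrane protein, had -5.77, Trib3, a stress-induced pseudokinase, -5.71 and Slc25a24, a mitochondrial ATP carrier, -5.35. Anxa1 also had the smallest SD of the 20 at 0.14, and Gata6 had the largest at 0.64, its highest value being -3.87 on array C10-434. That array held the highest value for 14 of the 20. The largest adjusted p (limma treat) was 1.63e-11.

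There were 134 genes lower in Cy5 by bound, with Cy5 signal not well above background on any array. Xist, the RNA that coats the inactive X chromosome of female cells, was at least 228-fold lower in these male hemibrains, with measured log2 ratios from -10.71 to -7.50. Cep55, needed for the last cut between daughter cells, was at least 81.5-fold lower, Aurkb, the kinase of the chromosomal passenger complex, at least 80.5-fold and Aspm, a spindle pole protein, at least 38.8-fold. Gfi1, a repressor of blood cell development, was at least 65.4-fold lower and Hoxa11, a homeobox gene of limb and uterus, at least 29.9-fold. Cell division accounts for several of the 10 lowest by bound, which also held Neil3, a DNA repair glycosylase (at least 57.1-fold), and Kif15, a mitotic kinesin (at least 29.8-fold).

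**Figure D2:**
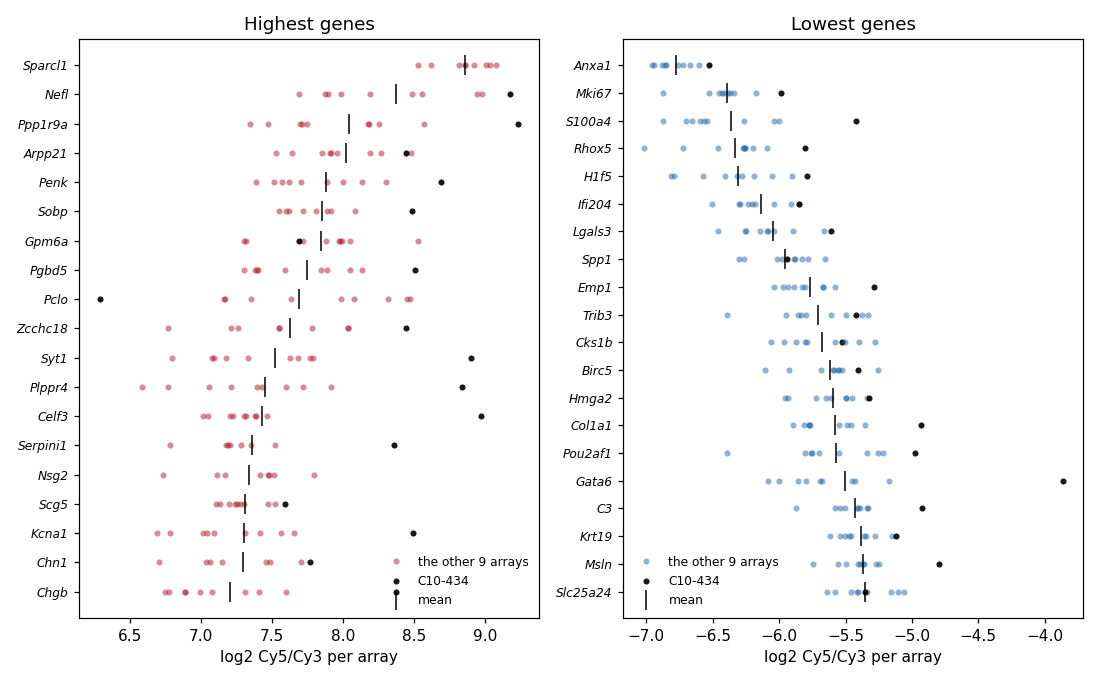
Log2 ratio of Cy5 to Cy3 on each array (x axis) for 19 of the 20 highest genes (left panel) and the 20 lowest genes (right panel) by mean ratio (y axis, genes), with 1 point per array, array C10-434 in black and a bar at the mean. The values on the left run from 6.29 to 9.24 and those on the right from -7.02 to -3.87, and C10-434 is the rightmost point for 14 genes on each side.

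Genes were next read by role, in lists that were chosen with earlier results known, so that the counts are a description. Beside each list stand the shares over all genes, 22.5% higher and 23.4% lower, and the median of all genes, -0.08. Where no number of arrays is given for a gene, both dyes were well above background on 9 or 10 of them. Of 531 list entries, 510 had a named probe and 462 were kept. A member dim in 1 dye was kept only if the other dye was bright, so the counts of lists with such members partly follow from the filter. The medians held their sign under every scaling, background correction and filter run, except those of the liver, proteasome and cholesterol lists and of the 5 genes with qPCR assays in the study. Their sizes moved more: with both dyes required above background the choroid and ependymal median went from 3.63 to 0.77 and the microglial one from 2.39 to 1.20, and with normexp the lymphocyte median went from -2.90 to -1.02 and the oncofetal one from -5.58 to -2.45.

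Neuronal lists had medians far above that of all genes. Of 12 neuron markers 11 were higher and 0 lower, with a median log2 ratio of 5.64. Map2, the dendritic microtubule protein, ran from 7.75 to 9.27 on 8 arrays and was well above background in Cy3 on 9, and Rbfox3, the nuclear antigen NeuN, ran from 3.84 to 5.47. Syn1, which coats synaptic vesicles, was the exception: its brightest probe ran from -0.71 to 0.06, while its other probe had a mean of 2.94 and was called higher. Of 14 genes of vesicles and release, 13 were higher with a median of 4.63, and Rims1, an active-zone scaffold, had 0.67 and was not called. All 11 excitatory receptor and scaffold genes were higher with a median of 4.64, from Dlg4 (PSD-95) at 2.46 to Grm5 (the metabotropic receptor mGluR5) at 6.58. Inhibitory transmission had a median of 6.43, the highest of the lists, with 11 of 12 higher, though with both dyes required above background it had 4.34 and neuron markers 4.60. Gad1, which makes GABA, ran from 8.06 to 9.35. Gphn, the scaffold gephyrin that many tissues use, had 0.80 and was not called. All 12 ion channel genes kept were higher with a median of 5.56. Cacna1a, the P/Q-type calcium channel, was the lowest of them at 2.09. Without array C10-434 the median was 5.54 for neuron markers, 6.27 for inhibitory transmission and 5.44 for ion channels.

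Glial lists were high as well, with a lower median for microglia. Of 12 astrocyte markers 11 were higher with a median of 5.30, led by Slc1a2, the glutamate transporter GLT-1, which ran from 9.26 to 12.02 with a median of 10.05 (mean 1098-fold). Gfap, the astrocyte intermediate filament, ran from 6.40 to 8.73, with Cy3 well above background on 2 arrays. Gja1 (connexin 43), a gap junction protein of many tissues, had 0.65 and was not called. All 11 oligodendrocyte and myelin genes were higher with a median of 4.40, from Sox10, the lineage transcription factor, at 3.32 to Cldn11, the tight junction protein of myelin, at 8.12, with Cy3 well above background on 6 arrays. Mbp, myelin basic protein, had a mean of 5.35, and Mog, a protein of the myelin surface, was at least 29.3-fold higher. Microglial genes stood lower, with 6 of 10 higher and a median of 2.39. P2ry12, a purinergic receptor, was at least 29.4-fold higher and Cx3cr1, the fractalkine receptor, had 3.59. Complement genes C1qa, C1qb and C1qc had 4.04, 3.43 and 3.92. Csf1r (the CSF1 receptor) at 0.76, Tmem119 (a microglial membrane protein) at 0.12 and Trem2 (a lipid-sensing receptor) at -0.34 were not called, so the microglial list was split.

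Vessels and choroid plexus were represented as well. Of 10 endothelial and mural genes 7 were higher with a median of 3.95. Cldn5, the tight junction protein of the blood-brain barrier, ran from 4.94 to 5.92, whereas Slc2a1, the glucose transporter that dividing cells also use, ran from -1.57 to -0.30 and was not called. Of 11 choroid and ependymal genes 8 were higher with a median of 3.63, and Ttr, the thyroxine carrier of choroid plexus, had the highest mean, 6.43 (86.0-fold). Of 15 neuropeptide genes 14 were higher with a median of 4.21. Pmch, the melanin-concentrating hormone precursor of the hypothalamus, had the highest mean of them, 8.18, with Cy3 well above background on 6 arrays. Cck (cholecystokinin) had 6.56 and Tac1 (substance P) 5.66, while Oxt and Avp, of the hypothalamic magnocellular neurons, had 3.42 and 4.21. Cort (cortistatin) at 0.99 was not called. The monoamine and acetylcholine list was mixed, with 6 of 10 higher and 1 lower. Slc6a3, the dopamine transporter, ran from 5.18 to 8.05 with Cy3 well above background on 7 arrays, and Maob, which degrades amines, had a mean of 6.22. Slc6a2, the noradrenaline transporter, had -2.42 and was lower, with Cy5 well above background on 6 arrays.

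Regional markers of cortex, hippocampus and striatum were mostly higher, and those of cerebellum were mixed. All 8 cortical and hippocampal genes were higher with a median of 3.91, among them Tbr1, a deep-layer transcription factor, at least 44.8-fold. Of 9 striatal genes 7 were higher with a median of 3.29, and Drd1, the dopamine D1 receptor, was at least 49.6-fold higher. Of 11 cerebellar genes with a named probe only 6 were kept. Among those 6, 3 were higher: Calb1 (calbindin, of Purkinje cells) at 5.86, Cbln1 (a synapse organiser of granule cells) at 3.87 and Zic1 (a granule cell transcription factor) at 6.95, with Cy3 well above background on 6 arrays. Pcp2, of Purkinje cells, had 1.15 and Barhl1 had -0.05, and neither was called. The levels of the regional lists followed no test of their difference and are not ranked here.

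**Figure D3:**
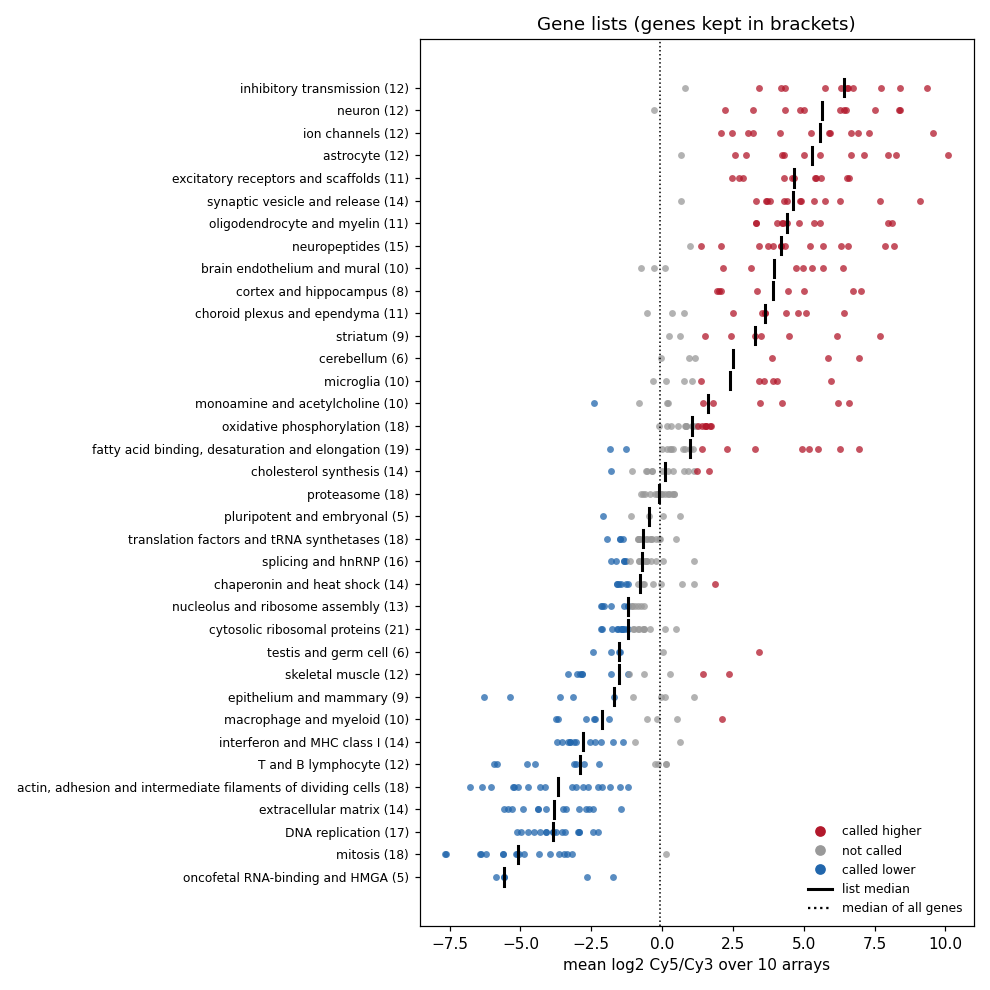
Mean log2 ratio of Cy5 to Cy3 over the arrays (x axis) for each member of the gene lists (y axis, number of genes kept in brackets), with 1 point per gene coloured by its call, a bar at the list median and a dotted line at the median of all genes. List medians run from 6.43 for inhibitory transmission to -5.58 for the oncofetal list, with the proteasome list at -0.11.

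Genes that copy DNA were lower in hemibrain. All 17 genes kept were lower in hemibrain with a median of -3.84 and no member higher. Mcm2, a subunit of the replicative helicase, ran from -6.53 to -4.49, and Pcna, the sliding clamp that also serves repair, had the smallest difference, from -2.70 to -1.97. Of 18 mitosis genes 17 were lower with a median of -5.09. Top2a, the topoisomerase that untangles chromosomes, ran from -6.93 to -5.86 with a mean of -6.42 (85.8-fold). Ccnb1, the mitotic cyclin B1, had a mean of -7.67, with Cy5 well above background on 1 array. Bub1, a checkpoint kinase, was the exception: its brightest probe ran from -0.12 to 0.40, while its other probe had -8.85 with Cy5 not well above background. With the 2 genes known only by a bound set to that bound, the mitosis median was -4.99.

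Genes of these lists shared promoter letters that the ratios did not use. The window taken was 250 bases before to 50 bases after each start in RefSeq annotation of GRCm38.p6, 32851 windows in all, and each motif was looked for on both strands. No motif below contains another, though matches may overlap at their ends, and a gene can have several windows. The CCAAT box (letters CCAAT) was in 13 of 14 mitosis windows (92.9%) and in 37.4% of all windows. It was also in 80% of cholesterol synthesis and 73.3% of splicing windows, from lists with median log2 ratios of 0.11 and -0.73, and in 0% of excitatory receptor windows. The CHR element (TTTGAA), which is known from cell cycle promoters, was in 10 of 14 (71.4%) and in 17.9% of all. Other lists also held it, with 44.4% for the myeloid list and 37.5% for the cortical list, against 7.69% for DNA replication and 0% for the muscle list. The E2F motif TTTGGCGC, of the S-phase activators, was in 4 of 13 DNA replication windows (30.8%) and in 0.514% of all. It was also in 14.3% of interferon and 9.09% of nucleolar windows, and in 0% of mitosis windows. Its variant TTTCGCGC was in 3 of 13 (23.1%) and in 0.323% of all. Over windows of genes kept the shares were 37.3% for CCAAT, 12.6% for TTTGAA, 0.849% for TTTGGCGC and 0.575% for TTTCGCGC. The lists are small and a match is a string of letters, not a site shown to be bound. Mitosis windows also held more CpG than others, with a mean of 22.4 CpG per window, against 12.4 over all windows and 19.2 over windows of genes kept. The windows of Top2a, lower in hemibrain by 6.42 on the log2 scale, and of Mcm6, a helicase subunit lower by a mean ratio of -4.33, are printed because each carries its list's motif more than once. Capitals mark CCAAT and TTTGAA on either strand for Top2a, at chr11:99024140-99024439 on the minus strand, and TTTGGCGC for Mcm6, at chr1:128359656-128359955 on the minus strand.
Top2a: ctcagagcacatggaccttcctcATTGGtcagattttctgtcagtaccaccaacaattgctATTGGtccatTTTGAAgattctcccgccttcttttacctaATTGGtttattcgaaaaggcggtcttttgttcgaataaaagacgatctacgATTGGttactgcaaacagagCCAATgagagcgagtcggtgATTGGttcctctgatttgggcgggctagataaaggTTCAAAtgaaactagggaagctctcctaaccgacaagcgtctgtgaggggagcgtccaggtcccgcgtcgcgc
Mcm6: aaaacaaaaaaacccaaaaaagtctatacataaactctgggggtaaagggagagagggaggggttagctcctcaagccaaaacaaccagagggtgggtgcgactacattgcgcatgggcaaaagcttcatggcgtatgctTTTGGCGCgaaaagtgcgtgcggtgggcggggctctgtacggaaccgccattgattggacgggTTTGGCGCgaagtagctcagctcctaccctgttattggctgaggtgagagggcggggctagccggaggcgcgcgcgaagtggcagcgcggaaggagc

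The ETS motif CCGGAAG, common in promoters of widely used genes, had its lowest share among genes with the highest ratios. It was in 14.9% of windows of genes kept, in 18.2% of those not called, in 15.0% of those lower, in 7.17% of those higher and in 3.23% of those above a log2 ratio of 4. The GC box GGGCGG varied less, at 55.0% for genes higher, 59.9% for genes lower and 58.7% for genes not called. Mean CpG per window was 18.5 for genes higher, 17.95 for genes lower and 20.0 for genes not called, and these shares and means are a description without a test.

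The matrix and actin genes of these lists were lower in hemibrain. All 14 extracellular matrix genes were lower with a median of -3.81, from Sparc (osteonectin) at -1.44 to Col1a1 at -5.58. Collagens as a whole were mixed: of 33 genes kept whose symbol is Col followed by a digit, 18 were lower and 11 higher, up to Col19a1 at 6.16. Col3a1, another fibrillar collagen, ran from -5.51 to -4.89, and Fn1 (fibronectin) had a mean of -3.50. All 18 genes of actin, adhesion and intermediate filaments were lower with a median of -3.66. Vim (vimentin) ran from -5.50 to -4.83 and Lmna (lamin A/C) had the smallest difference, -1.20. Genes of embryonic growth were lower too, 5 of 5 kept with a median of -5.58: Igf2bp2 and Igf2bp3, oncofetal mRNA-binding proteins, had -5.87 and -5.58, the latter with Cy5 well above background on 5 arrays.

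Immune genes were mostly lower in hemibrain. Of 12 lymphocyte genes 8 were lower and 0 higher, with a median of -2.90. All 12 had Cy3 well above background on every array and only 2 had Cy5 so. The others passed the filter through Cy3, so these counts partly follow from the filter. Cd79b, part of the B cell receptor, ran from -6.25 to -5.59, and Cd28, a T cell costimulator, was at least 5.56-fold lower. Of 10 myeloid genes 6 were lower, and Itgam (CD11b), which microglia also carry, had 2.13 and was higher. Of 14 interferon and MHC class I genes 12 were lower with a median of -2.80. B2m, the light chain of MHC class I, ran from -4.01 to -3.37 with a mean of -3.70, and Psmb8, an immunoproteasome subunit, had -3.24. Ifit3, an interferon-induced protein, had 0.62 and was not called. The interferon-response core GAAANNGAA was in 4 of 14 windows of this list (28.6%) and in 8.56% of all windows. That share was not particular to the list: it was 33.3% for the myeloid list, 25% for the matrix and ribosomal protein lists and 0% for the splicing list. The TATA box TATAAA was in 7 of 14 and in 13.6% of all, with 44.4% for the endothelial list, 33.3% for the matrix list and 0% for the DNA replication list. The B2m window is shown as an example, at chr2:122147437-122147736 on the plus strand, with GAAANNGAA in capitals.
B2m: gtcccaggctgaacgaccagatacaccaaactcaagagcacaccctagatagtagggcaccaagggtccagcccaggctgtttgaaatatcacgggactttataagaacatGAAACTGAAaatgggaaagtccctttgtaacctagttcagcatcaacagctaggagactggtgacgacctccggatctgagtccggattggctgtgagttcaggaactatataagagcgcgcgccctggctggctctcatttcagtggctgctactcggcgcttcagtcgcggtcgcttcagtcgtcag

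Markers of other tissues gave counts without a single pattern. Of 9 epithelial genes kept 5 were lower, with Epcam, an epithelial adhesion protein, at -6.30 and Cy5 well above background on 4 arrays. Of 12 skeletal muscle genes 7 were lower and 2 higher, and Des (desmin) had -2.91. Of 4 erythrocyte genes 2 were higher, Hba-a1 (alpha globin) at 4.17 and Alas2 (the first enzyme of erythroid heme synthesis) at 4.07, the latter with Cy3 well above background on 8 arrays. Of the 11 liver markers with a named probe 3 were kept: Ttr, which choroid plexus makes, and Trf, which oligodendrocytes make, were higher, and Afp, the fetal serum protein, ran from -6.31 to -5.25 with Cy5 well above background on 4 arrays. Alb (albumin) was not kept. Of 6 testis and germ cell genes 4 were lower and 1 higher, and of 5 pluripotency genes 1 was lower.

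Machinery used in every cell lay nearer to 0, and it did not lie at one level. None of 18 proteasome genes was called, with a median of -0.11 and gene means from -0.75 (Psma3) to 0.43 (Psmc4). Psmb2, a subunit of the proteasome core, was the nearest to an equal signal, from -0.50 to 0.44. Of 18 oxidative phosphorylation genes 7 were higher and 0 lower with a median of 1.06, from Cox7a2 (a small subunit of cytochrome oxidase) at -0.12 to Ndufa4 (a respiratory chain subunit) at 1.73. Atp5b, the catalytic subunit of ATP synthase, ran from 1.43 to 2.05. Of 21 cytosolic ribosomal protein genes 11 were lower and 0 higher with a median of -1.20. Rpl10 ran from -2.43 to -2.01, while Rplp1, of the ribosomal stalk, ran from -0.21 to 1.41 and was not called. Ribosomal protein genes have many processed copies in the genome, so their probes may read more than 1 sequence. Of 13 nucleolar genes 7 were lower with a median of -1.19, with Npm1 (nucleophosmin) at -2.13 and Dkc1 (the pseudouridine synthase dyskerin) at -2.17. Of 18 translation factors and tRNA synthetases 4 were lower, with a median of -0.69, and of 16 splicing genes 5 were lower, with a median of -0.73. Of 14 chaperonin and heat shock genes 6 were lower and 1 higher, with a median of -0.77, from Cct4 (a chaperonin subunit) at -1.61 to Hsp90aa1 (a stress-regulated HSP90) at 1.87. Cholesterol synthesis had 2 genes higher and 1 lower of 14, with Hmgcs1, an early enzyme, at 1.67 and Lss, which closes the sterol rings, at -1.79.

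Genes that handle fatty acids were read because the diets of the study differed in them. Of 19 kept, 8 were higher and 2 lower, with a median of 0.97. Rxrg, a retinoid X receptor, ran from 6.01 to 7.75, Acsl6, the acyl-CoA synthetase that favours docosahexaenoic acid, from 5.75 to 7.48, and Fabp7, the brain fatty acid binding protein, from 5.11 to 6.07. Elovl4, which makes very long chains, had a mean of 5.19, and Elovl2, which elongates polyunsaturated chains, had 4.94 with Cy3 well above background on 2 arrays. Mfsd2a, the docosahexaenoic acid transporter of the blood-brain barrier, had 3.29. The desaturases Fads1 and Fads2 had 0.01 and 0.31, with ranges from -0.53 to 0.72 and from -0.18 to 0.81, and were not called. Elovl1, the elongase of saturated chains in most tissues, had -1.83 and was lower. Of 5 genes the study tested with separate qPCR primer assays, Sod1 (superoxide dismutase) had 1.37 and was higher, Mmp9 (a gelatinase) had -4.48 and was lower, and Bdnf at -0.77 and Fkbp5 at 0.52 were not called. Mmp9 was well above background in Cy5 on 7 arrays, and Nos1 was not kept.

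Paralogs that do one task in neurons and in other cells were then set side by side by their ratios. Of 36 pairs listed, 33 had both members kept. The neural member was called higher in 29 and the general member lower in 13, and in 11 pairs the members were called in opposite directions with 0 in the reverse order. Both were higher in 5 pairs, and neither was called in 2. Some of these counts rested on the probe taken. Mapk9 was higher at 2.32, while its other probes had -0.71 and -0.05 and were not called. Sptbn1 was higher at 1.54, while its others ran from -0.59 to 0.60 and were not called. Ss18l1 was not called at -0.09, while its other probe had 2.26 and was called higher. The widest gap was between intermediate filaments, with Nefl above Vim by 13.48 ± 0.64 (SD, n = 10 arrays). For the tubulins, Tubb3, the neuronal beta-tubulin, ran from 2.81 to 3.99 and Tubb6 from -4.78 to -3.72. Membrane fusion gave Snap25 from 5.81 to 7.24 and Snap23 from -2.24 to -1.22. Glycolysis showed the same order: Eno2 had a mean of 2.21 and Eno1 -1.94, Hk1 had 1.63 and Hk2 -1.91, and Ldhb, the heart and brain form of lactate dehydrogenase, had 4.39 and Ldha -1.40. Subunits of the BAF chromatin remodeller also parted, with Actl6b at 3.82 and Actl6a at -1.93. The kinase Cdk5, which acts in neurons after division, had 1.23 and Cdk1, which drives mitosis, had -3.18. Among RNA-binding proteins Elavl4 (HuD) had 5.89 and Elavl1 (HuR) had -2.52, but the probes of Elavl1 disagreed, at -2.52, -1.71 and 2.61.

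The neural member lay above the general member on every array with both values in 32 of 33 pairs, and their ranges did not overlap in 32. The exception was Tubb4a, from -0.90 to 0.78, against Tubb5, from 0.43 to 1.13. Tubb4a lay below Tubb5 on all 10 arrays, with a mean difference of -0.88, and neither was called. In some pairs both members were higher in hemibrain, such as Camk2a at 4.64 and Camk2g at 2.12, kinases of calcium signalling, and Stmn2 at 4.87 and Stmn1 at 2.72, which destabilise microtubules. Ptbp2 and Ptbp1, splicing regulators of neurons and of other cells, had 1.17, which was not called, and -2.92. Pairs were chosen for this known order, so its direction is no independent result, and the sizes are what the arrays add.

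**Figure D4:**
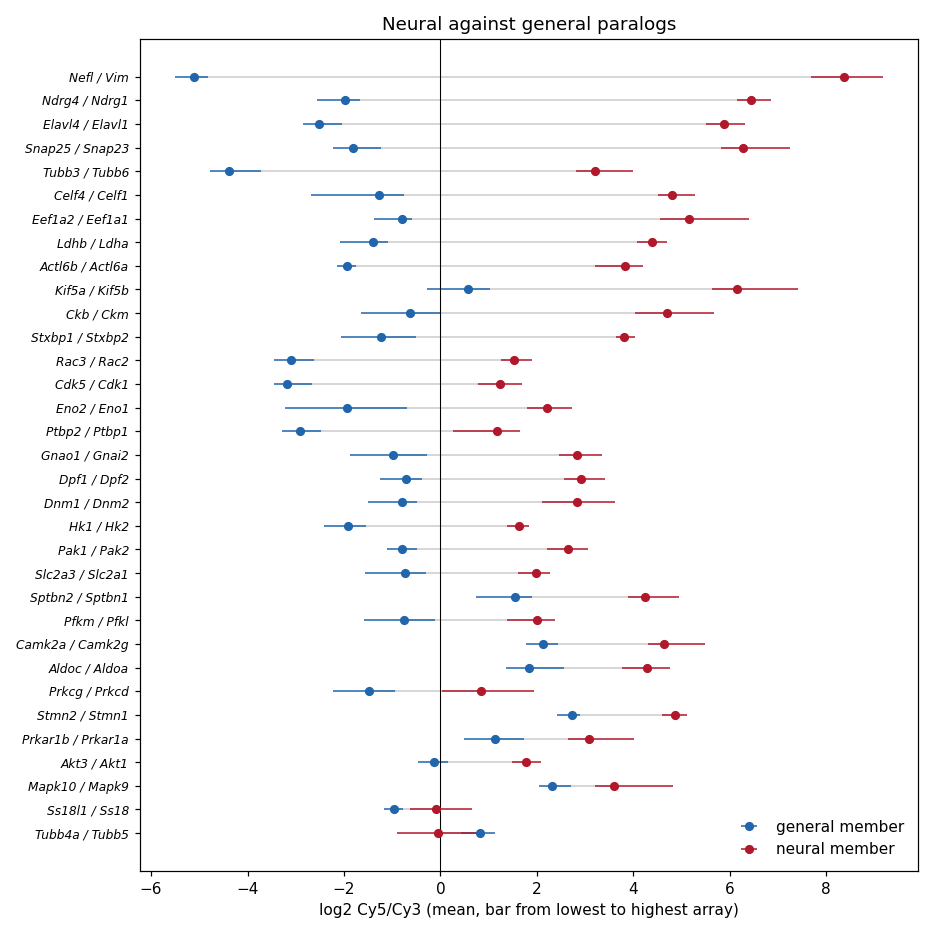
Log2 ratio of Cy5 to Cy3 (x axis) for the neural and the general member of each of 33 paralog pairs (y axis), with a point at the mean and a line from the lowest to the highest array. The 2 lines of a pair overlap only for Tubb4a and Tubb5.

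A walk over symbol stems picked no family by its values. Symbols were grouped by their letters before the first digit, giving 180 stems with at least 10 genes kept, of 4728 genes in all. The stem median was above 1 for 14 and below -1 for 20. The highest was Kcnj, the inward rectifier potassium channels, with a median of 4.96 and 10 of 10 genes higher, though after normexp (2.52 against 3.10) and after subtraction with a floor (3.50 against 4.00) it lay below Scn. Only Kcnj4 had Cy3 well above background on all 10 arrays. The other Kcnj genes kept passed the filter through Cy5, where they were high, so the count partly follows from the filter. Next came Scn, the voltage-gated sodium channels, at 4.86, where Scn8a and Scn2b had 6.92 and 6.98 and Scn4a, the muscle channel, had 0.46. Pcdh, the protocadherins, had 4.27 and spanned from Pcdh7 at -3.76 to Pcdh8 at 8.35, the latter with Cy3 well above background on 1 array. Cadherins (Cdh) had a median of 3.27 and synaptotagmins (Syt) 3.10, where Syt10 alone was below 0 at -2.19. Myosin heavy chains (Myh) had 3.12, and Myh9, the non-muscle form of most tissues, was the lowest of them at -1.85. The lowest stem was Hoxa at -4.23 with 8 of 10 genes lower, though after normexp it had -1.11, against -2.54 for Ifi and -2.69 for Mcm, and after subtraction with a floor -1.73, against -3.07 and -3.02. Only Hoxa3 and Hoxa7 had Cy5 well above background on all 10 arrays. The other Hoxa genes passed the filter through Cy3, so their count partly follows from the filter, and dim members of other stems passed in the same way. Within the Hoxa stem Hoxa3 was the highest at 0.67, and Hoxa7 and Hoxa9, known from axial patterning, had -3.54 and -4.20. Next were Ifi (interferon-inducible) at -3.56, Mcm at -3.45, Ccl (chemokines) at -2.74 and Mmp (matrix metalloproteinases) at -2.65. Some families were split by member: Mmp3 (stromelysin) had -8.47, with Cy5 well above background on 1 array, while Mmp17 and Mmp24, membrane-anchored forms, had 3.99 and 3.47. Among the chemokines Ccl7 had -6.34 and Ccl27a had 3.83. Probes of genes with near-identical copies, such as Ccl27a, Ifi204, Hba-a1 and Naip6, may read more than 1 of them. Caspases (Casp) had a median of -2.36, with Casp9, the initiator, at 0.89. The directions of these medians held in the 6 scalings and background corrections run.

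Long non-coding RNAs were called about as often as other genes. Of 171 kept, 47 (27.5%) were higher and 43 (25.1%) lower, with a median of -0.08. Pantr1, transcribed beside the neural gene Pou3f3, ran from 5.87 to 7.98, and Sox2ot, which overlaps Sox2, ran from 4.55 to 6.09. Dlx6os1, of interneuron development, was at least 23.5-fold higher. The imprinted RNAs Meg3 and Rian had 3.79 and 5.55, the latter with Cy3 well above background on 3 arrays. Lower were Lockd, beside Cdkn1b, from -5.51 to -4.67, and Neat1, the scaffold of paraspeckles, at -1.28, while Malat1, of nuclear speckles, had 0.80 and was not called. Of 7 small nucleolar RNA hosts (Snhg) kept, 5 were lower and all 7 were below 0.

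Some of these transcripts host microRNAs, which the arrays did not measure. By RefSeq intervals of GRCm38.p6, 15 of the transcripts kept span a mature microRNA, strand of the host not checked, and 7 of the 15 were higher and 4 lower. Over all long non-coding RNAs kept, 27.5% were higher and 25.1% lower, and a difference of the hosts from these shares was not tested. Mature forms are printed where hosts with different ratios share a seed, with bases 2 to 8, the seed that pairs with targets, in capitals. Mir9-3hg, a host of miR-9, was at least 107-fold higher, and C130071C03Rik, another host of the same microRNA, ran from 1.96 to 4.46 with Cy3 well above background on 8 arrays. Dleu2, host of miR-15a and miR-16, ran from 1.28 to 2.27 and was higher, whereas C430049B03Rik, host of miR-322 with the same seed, ran from -4.86 to -3.17 and was lower, with Cy5 well above background on 2 arrays. That host also spans miR-351, whose seed is the one of miR-125b in Mir100hg, which ran from -2.81 to -1.10 and was lower. Dnm3os, host of miR-199a and miR-214 and known from mesenchyme, ran from -7.12 to -3.79 with Cy5 well above background on 7 arrays. The sites are miR-9-5p at chr13:83738821-83738843 (plus), miR-15a-5p at chr14:61632075-61632096 (minus), miR-16-5p at chr14:61631936-61631957 (minus), miR-322-5p at chrX:53054306-53054327 (minus), miR-351-5p at chrX:53053315-53053338 (minus), and miR-125b-5p at chr9:41581940-41581961 (plus).
miR-9-5p: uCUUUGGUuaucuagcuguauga
miR-15a-5p: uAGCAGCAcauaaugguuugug
miR-16-5p: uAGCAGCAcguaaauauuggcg
miR-322-5p: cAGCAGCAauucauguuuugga
miR-351-5p: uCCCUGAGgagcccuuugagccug
miR-125b-5p: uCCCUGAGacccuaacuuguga

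Where a gene had several probes, the gene value could rest on the probe. Of 3232 genes with at least 2 probes well above background in both dyes on all 10 arrays, 62 (1.92%) had 1 probe called higher and another called lower, and the median gap between probes was 0.66. Cacna2d2, an auxiliary subunit of calcium channels, had 4.32 by 1 probe, from 3.78 to 5.32, and -1.73 by the other, from -2.01 to -1.46. Dclk1, a microtubule-binding kinase of migrating neurons, had 6 probes from -1.46 to 4.44. Zwint, a kinetochore protein that is also known in neurons, had 2.90 and -2.77. B4galt1 (a galactosyltransferase) had 2.23 by 1 probe and -2.85 and -2.94 by the others, and Nsmce2 (a SUMO ligase) had 2.13 and -3.14. Each of these probes kept its side of 0 on every array with a value, apart from 1 of Dclk1 with a mean of 0.80. Which transcript each probe reads was not tested.

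The arrays also differed at a few genes. Among 11372 genes well above background in both dyes on all arrays, 95.2% had an SD under 0.5 over the arrays, and 18 (0.158%) had an SD above 1. Marf1, an RNA-binding regulator of meiosis, was the most variable with an SD of 2.15. Its log2 ratio was 3.36 on C10-434, 3.12 on C10-437, 2.91 on C10-413, 1.46 on C10-424 and 0.97 on C10-423, and it was -0.51 on C10-415, -1.12 on C10-425, -1.29 on C10-417, -1.77 on C10-435 and -2.28 on C10-416. The values were spread on both sides of 0, with 5 arrays above and 5 below. Raly, an hnRNP family protein, was above 0 on 3 arrays, with 0.50 on C10-434, 0.37 on C10-437 and 0.21 on C10-413, and lay between -2.66 and -0.73 on the other 7. The 3 arrays highest for Raly were also the 3 highest for Marf1. Of these, C10-413 and C10-437 each lay alone on a slide, and C10-434 was the array with the low Cy5 signal.

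A second set varied in another order. Kif12, a kinesin of kidney, ran from -0.47 on C10-413 to 4.70 on C10-434, Creb3l3, a liver transcription factor, from 0.20 to 5.08 on the same 2 arrays, and Syt6, a synaptotagmin, from 0.44 to 4.99 on them again. Among the 25 most variable genes 13 had their lowest value on C10-413, 10 their highest on C10-434 and 9 their highest on C10-417. Lars2, the mitochondrial leucyl-tRNA synthetase, ran from -2.41 on C10-437 to 2.44 on C10-417, and the probe for the 28S ribosomal RNA, Rn28s1, ran from -2.47 on C10-413 to 0.13 on C10-416. Naip6, of the inflammasome sensor family, ran from 2.53 on C10-437 to 6.18 on C10-415 and was positive throughout. For the spread of each dye alone, signals were taken after loess within arrays and Aquantile normalization between arrays. That spread was larger in Cy5 than in Cy3 for 24 of the 25. Over all genes the median SD was 0.26 in Cy5 and 0.07 in Cy3. The common Cy3 RNA also varied on some of these probes, with a Cy3 SD of 0.79 for Kif12, 0.57 for Creb3l3, 0.91 for Syt6 and 0.80 for Lars2. For Marf1 and Raly the Cy3 SD was 0.15 and 0.03. Naip6 was the exception among the 25, with an SD of 0.63 in Cy5 and 0.82 in Cy3. Without C10-434, 21 of the 25 were again among the 25 most variable. What set these genes apart, diet, animal, slide or array, was not tested.

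**Figure D5:**
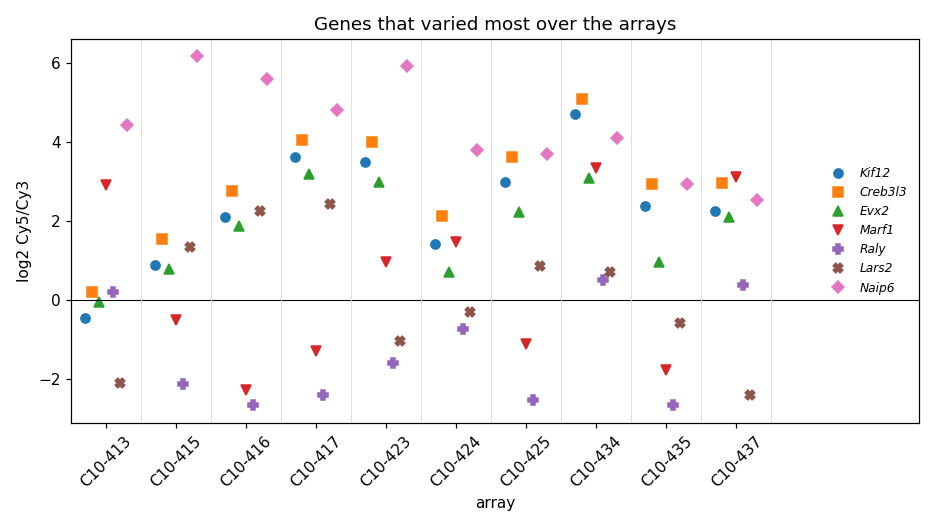
Log2 ratio of Cy5 to Cy3 (y axis) on each of the 10 arrays (x axis) for 7 of the most variable genes, each with its own symbol. Kif12, Creb3l3 and Evx2 (a homeobox gene) follow one order with low values on C10-413, Marf1 and Raly follow another with high values on C10-413, C10-434 and C10-437, and Lars2 and Naip6 have orders of their own.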

How the data were processed

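Each array was an Agilent 4x44K whole mouse genome array with 45018 spots, scanned and quantified by the authors with Feature Extraction. Its version was 10.10.1.1 in the scanner files, while the study's methods name another version. The processed Cy5 and Cy3 signals deposited by the authors are linear intensities, background-subtracted and dye-normalized by that software, and the methods describe LOWESS within each array. The deposited table of 1 value per probe and array holds log2 values, with column medians from -0.05 to 0.10. It correlated at 0.997 or more per array with the log ratios of the scanner files, which alone does not fix a log base. Its scale was read from equal values: the neuron list median on C10-434 was 6.74 from this table and 6.74 from the scanner signals in log2. Its exact processing is not given in the sources used here. The scanner files also hold log10 ratios deposited by the authors, made by Feature Extraction from the same signals. Precision is limited by the number of arrays.

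From the 43379 non-control spots, log2(Cy5/Cy3) was taken per array, outlier-flagged spots were dropped, spots of a probe were averaged, and an intercept model was fitted with limma 3.58.1 in R 4.3.3 and tested with treat at a log2 ratio of 1 (adjusted p under 0.05). Of the kept probes 1083 lack a value on at least 1 array, and their fit uses the others. Probes were named through platform annotation updated by RefSeq: 27198 of 41174 (66.1%) had 1 gene, 18539 genes in all, and other probes are unnamed here. Bounds came from each dye's signal after loess and Aquantile normalization and are open to dye bias. The SDs of single dyes came from the same normalized signals. Arrays are separate samples by their labels, each from 1 hemibrain as far as these say. The study's methods describe fewer arrayed samples than the 10 arrays used here, so whether each array is a separate animal was not settled. The p-values measure the spread between these arrays. The labelling note names biotin and fluorescein where the methods and labels name Cy dyes. Genes named were the 20 highest and 20 lowest well above background in both dyes, the 10 highest and lowest by bound, extreme members of lists, pairs and families, the 5 genes with the widest gap between probes, and the most variable genes, the latter with microRNA hosts and promoter windows chosen after their values were seen. The members and lists were chosen with earlier results of these data known. The fit was tested on simulated data. Tables and plots used Python 3.11.15, numpy 2.4.6, pandas 2.3.3 and matplotlib 3.10.9. Alternatives were the mean of all probes of a gene, loess, centring, the deposited table, normexp (on median signals), subtraction with a floor, other filters on dim probes, other thresholds, slide as a random block, each slide of 4 arrays alone, and leaving out each array. Some genes are not reported here.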

Additional observations from a re-analysis of the deposited data

Results flagged for a closer look

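Of 84 measures compared over the 10 arrays, 13 had an array whose gap to its nearest neighbour exceeded Dixon's 95% critical value of 0.466 of the range; chance alone gives about 1 in 20 such measures. Array C10-434 gave 12 of the 13. In Cy5 49.8% of its probes were well above background, while the 9 others had 68.2% to 76.9%, and in Cy3 61.9% were, while the 9 others had 70.3% to 79.1%.

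The other values of C10-434 were log2 ratios. Its list medians were 6.74 for neuron markers (4.90 to 5.81 on the other arrays), 7.47 for inhibitory transmission (5.77 to 6.65), 6.26 for ion channels (5.07 to 5.69) and 5.06 for neuropeptides (3.85 to 4.49). Single genes were Syt1 at 8.90 (6.79 to 7.79), Celf3 at 8.97 (7.01 to 7.47), Serpini1 at 8.36 (6.78 to 7.52) and Chgb at 8.37 (6.75 to 7.60), and on the low side Gata6 at -3.87 (-6.08 to -5.18) and Msln, a mesothelial surface protein, at -4.80 (-5.75 to -5.25). These values moved together with the low Cy5 signal of that array, and its part in them was not tested. After background subtraction with a floor the neuron median of C10-434 was still the highest of the 10, at 5.36 against up to 5.18, while its inhibitory transmission median ranked 2 (5.71 against 5.72 on C10-413) and its ion channel and neuropeptide medians ranked 9 and 8 of the 10.

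On array C10-415 the median of the chaperonin and heat shock list was -1.09, against -0.89 to -0.68 on the other arrays.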

How the results depend on the processing

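No paired analysis was possible because the arrays form 1 group, so that no replicate number pairs samples between groups; the ratio itself pairs both dyes within each array. Loess, centring, the deposited table, the same-dye filter, the slide block and single slides kept all counts within 1.5 times. With 5456 probes higher and 6789 lower as reported, normexp gave 3445 and 2338, subtraction with a floor gave 4243 lower, the both-dyes filter 3485 lower, a test against 0 gave 10503 and 13126, and a threshold of 2 gave 3361 and 3049. By gene (3235 higher, 3371 lower), normexp gave 1532 lower, the both-dyes filter 2201 lower, a test against 0 6097 and 6680, and a threshold of 2 2036 and 1555. Lists with most members lower went from 13 to 6 with normexp, 8 with the floor and 7 at a threshold of 2. Pairs called in opposite directions went from 11 to 23 against 0 and to 3 at a threshold of 2. The liver list median (3 genes) was 5.20 as reported and -0.21 without the filter on dim probes, and Sptbn1, with a ratio of 1.54 as reported, was -0.025 by the mean of all its probes. The cause of these shifts was not tested, beyond the thresholds and filters themselves. Leaving out each array gave 5384 to 5458 probes higher and 6667 to 6764 lower. Within the slides of 4 arrays, 5032 and 5041 were higher and 6171 and 6112 lower, and the slide block had a consensus correlation of -0.01. Of 2975 comparisons over 125 named genes, 2907 kept direction and side of the threshold, 43 lost the call, 24 gained one and 1 reversed. For genes with a dye near background, signal over background limits the ratio.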
